A study of Rattus norvegicus with 9 samples.

Results

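The genes described here encode the mitochondrial respiratory chain and the ATP synthase, in arteries of adult rat offspring. Members were the lines of the count tables whose symbol begins with Nduf, Uqcr, Atp5 or Mt-, is one of Sdha to Sdhd, or begins with Cox and a digit from 4 to 8, provided that the line held at least 100 counts summed over the 9 libraries. Of 30452 lines, 107 had such a symbol and 96 reached the minimum. They comprised 83 nuclear lines and 13 lines of the mitochondrial genome, under 93 distinct symbols, with 3 symbols on more than 1 line (Ndufa10l1, Ndufs5 and Atp5mk). The nuclear lines were 34 for subunits of complex I, 4 for complex II, 7 for complex III, 15 for complex IV, 15 for complex V, 7 for complex I assembly factors (Ndufaf1 to Ndufaf7) and 1 pseudogene, Ndufv3-ps1. The mitochondrial lines were 7 for complex I, 1 for complex III, 3 for complex IV and 2 for complex V. The count minimum fell between Ndufa1 at 94 counts, left out, and Ndufv3-ps1 at 120 and Ndufa4l2 at 137 counts, kept.

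RNA sequencing covered 3 groups of 3 libraries. Mesenteric artery of control offspring (MAC, replicates 1, 2 and 3) came from dams that drank ordinary water in pregnancy, and mesenteric artery of high-sucrose offspring (MAH, replicates 1, 2 and 3) from dams given water with 20% sucrose; pulmonary artery of control offspring (PAC, replicates 1, 2 and 4) completed the set. All dams ate standard diet, and all offspring were 3 to 5 months old. The sources used here give no strain or sex, nor do they say whether a library holds 1 animal or pooled vessels, so p-values measure the spread between these samples, which may be technical. Pulmonary control replicate 3 and pulmonary arteries of high-sucrose offspring were not analysed here.

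The respiratory chain sits in the inner mitochondrial membrane. Complex I takes electrons from NADH and complex II takes them from succinate; both pass them through ubiquinone to complex III, which hands them by cytochrome c to complex IV, where oxygen is reduced to water. Complexes I, III and IV pump protons, and complex V, the ATP synthase, lets them flow back to make ATP. Most subunits are encoded in the nucleus and imported, and the mitochondrial genome encodes a small core of complexes I, III, IV and V, so each of these complexes is built from both sources. Complex II is nuclear throughout. In muscle, some subunits of complex IV have an isoform of their own: Cox6a2 and Cox7a1 are the heart and skeletal muscle forms, and Cox6a1 is the form of most other tissues.

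Nuclear respiratory genes are textbook targets of the factors NRF1, NRF2 (GABP, an ETS factor) and YY1, so the letters these factors are known to bind were looked for in the promoters, as a property that the choice of members did not use. RefSeq promoters of build GRCr8, 300 bases from 250 before to 50 after the gene start, were found for 71 of 79 nuclear member symbols. Both strands were read, and no match to one motif overlapped a match to another in these promoters. The NRF1 letters, GCGCA then any base then GCGC, stood in 14 of 71 member promoters (19.7%), against 4.71% of all 27457 promoters. For the ETS letters CCGGAAG the count was 19 (26.8%) against 9.22%, and for the YY1 letters ATGGCGGC it was 11 (15.5%) against 2.76%. At least 1 of these 3 motifs stood in 37 member promoters (52.1%), against 15.0% of all. Median GC content was 56% in the member promoters and 52.3% in all promoters, and its part in these shares was not tested. Members also had to reach the count minimum in these arteries, which was not asked of all promoters. The shares therefore compare expressed genes with genes of any expression, and the part of this was not tested. Motifs of muscle genes were no more frequent among members: the MEF2 letters, CTA and TAG with 4 free bases between them, stood in 2 (2.82%, against 3.83%) and the muscle E-box CAGCTG in 10 (14.1%, against 15.1%). The GC box GGGCGG stood in 29 (40.9%, against 34.9%). A match is a run of letters and not a bound site.

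The promoters of 4 members to which the values below return are printed 5′ to 3′ on the strand of the gene, with the matches named for each gene in capitals. In Cox6a2 (chr1:192219667-192219966, minus strand) the capitals mark the muscle E-box and the MEF2 letters, and none of the 3 respiratory motifs was found. In Sdha, the flavoprotein of complex II (chr1:30764303-30764602, plus strand), they mark 3 matches to NRF1. In Ndufs1, the largest iron-sulfur subunit of complex I (chr9:72073556-72073855, minus strand), they mark an ETS match and a YY1 match. In Cox4i1, the common form of subunit IV of complex IV (chr19:65630133-65630432, plus strand), they mark 2 ETS matches, while 1 muscle E-box and 2 GC boxes in this promoter are left in lower case. All positions are those of GRCr8.
Cox6a2: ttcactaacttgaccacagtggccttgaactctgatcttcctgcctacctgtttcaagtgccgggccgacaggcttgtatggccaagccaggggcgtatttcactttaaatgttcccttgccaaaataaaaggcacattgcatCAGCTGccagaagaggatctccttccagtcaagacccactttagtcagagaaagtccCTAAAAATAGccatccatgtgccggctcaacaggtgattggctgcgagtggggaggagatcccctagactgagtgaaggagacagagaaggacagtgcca
Sdha: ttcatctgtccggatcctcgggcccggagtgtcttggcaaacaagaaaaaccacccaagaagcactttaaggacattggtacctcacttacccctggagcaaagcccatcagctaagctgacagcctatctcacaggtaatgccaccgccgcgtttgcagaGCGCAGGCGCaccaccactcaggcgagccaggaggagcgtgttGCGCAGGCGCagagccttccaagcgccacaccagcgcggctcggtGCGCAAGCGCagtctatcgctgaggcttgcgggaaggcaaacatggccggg
Ndufs1: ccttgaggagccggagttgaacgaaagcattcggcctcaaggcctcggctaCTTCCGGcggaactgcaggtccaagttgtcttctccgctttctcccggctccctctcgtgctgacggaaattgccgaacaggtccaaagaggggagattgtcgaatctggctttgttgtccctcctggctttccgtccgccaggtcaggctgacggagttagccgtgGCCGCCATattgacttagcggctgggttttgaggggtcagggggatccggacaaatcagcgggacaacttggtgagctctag
Cox4i1: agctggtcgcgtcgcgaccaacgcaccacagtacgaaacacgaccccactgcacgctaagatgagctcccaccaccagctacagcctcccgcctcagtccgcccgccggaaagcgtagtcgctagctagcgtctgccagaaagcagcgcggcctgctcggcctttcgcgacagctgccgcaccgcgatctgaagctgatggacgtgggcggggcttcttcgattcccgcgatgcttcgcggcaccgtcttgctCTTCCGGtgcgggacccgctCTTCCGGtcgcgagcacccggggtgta

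Levels are given as CPM, counts relative to a library's total scaled by the TMM method and brought to a common size, which sets libraries to a common footing through the bulk of their genes. CPM are not divided by gene length, so the level of a gene is compared between libraries. Sums, shares and isoform ratios put genes together within a library without correction for length, so their size also depends on length. Total counts ran from 10388231 to 15420546 per library and TMM factors from 0.900 to 1.09. All 10 smooth muscle markers were detected in each library, and their summed level was 44531, 11910 and 32026 CPM in MAC, 24258, 29865 and 19156 in MAH, and 22590, 24688 and 3818 in PAC. MAC replicate 2 and PAC replicate 4 therefore stood low in smooth muscle transcripts. The summed level of 12 cardiac muscle markers was between 36.4 and 116 CPM in the 6 mesenteric libraries, and 1076, 26178 and 2237 in PAC replicates 1, 2 and 4. In PAC replicate 1 most of it was Actc1 (1014 CPM), while Myh6 and Myl7 were at 2.63 and 1.31. In PAC replicate 2 all 12 cardiac markers were at their highest level of the 9 libraries, with Myh6 at 6110 CPM, and in PAC replicate 4 the same held for 10 of 10 lymphocyte and 7 of 7 lung epithelium markers. In whole vessels, fewer cells of a type and less RNA per cell cannot be told apart.

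In the mesenteric arteries of high-sucrose offspring, messages of the nuclear subunits were mostly a little lower than in controls, and messages of the mitochondrial genome mostly a little higher, but no gene passed the test. Summed over the 75 nuclear subunit lines, the level was 8242, 5914 and 8710 CPM in MAC replicates 1, 2 and 3, and 6150, 6205 and 7015 in MAH (mean 7622 ± 1497 against 6457 ± 484, SD, n = 3). MAC replicate 2 was the lowest of all and lay below the 3 MAH libraries, so the groups overlapped. Summed over the 13 mitochondrial messages, the level was 125894, 159743 and 155937 CPM in MAC, and 129805, 166858 and 217064 in MAH (147191 ± 18542 against 171242 ± 43794). Here MAH replicate 3 was above every control and MAH replicate 1 below 2 of them. As a share of all counts, the mitochondrial messages made up 12.8%, 16.7% and 15.1% in MAC and 13.8%, 16.9% and 20.0% in MAH.

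**Figure D1:**
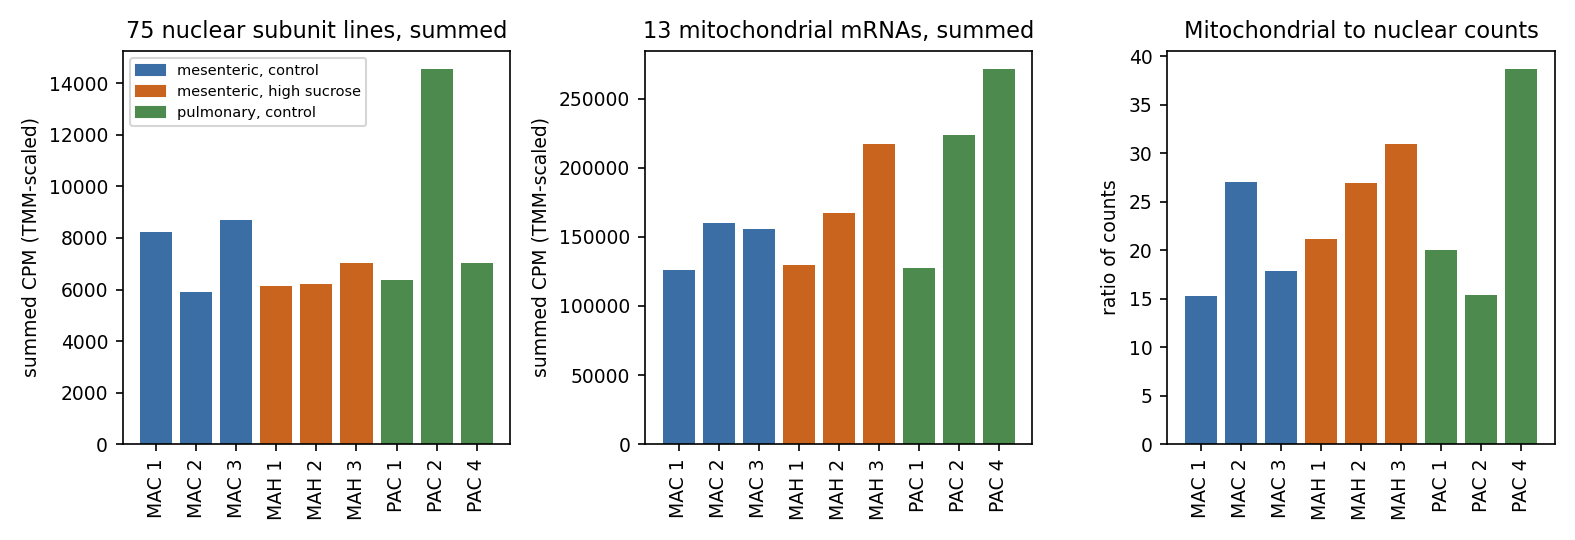
Summed levels per library (bars, 1 per library; MAC mesenteric control, MAH mesenteric high sucrose, PAC pulmonary control): the 75 nuclear subunit lines and the 13 mitochondrial messages in CPM on TMM-scaled totals, and the ratio of their counts. PAC replicate 2 stands highest for the nuclear sum at 14533 CPM, and PAC replicate 4 for the mitochondrial sum at 270992 CPM and for the ratio at 38.6.

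Each line was tested with edgeR's quasi-likelihood test on counts, and p-values were adjusted by Benjamini-Hochberg over all features tested; a feature was called at an adjusted p under 0.05. Between MAH and MAC, 0 of 13995 features were called (percentage called 0), and 0 of the 94 members tested. The smallest adjusted p among members was 1.00. At an unadjusted p under 0.05 stood 4 of the 94 members, against 1.99% of all features. DESeq2 called 3 features, none of them a member. Of the 73 nuclear subunit lines tested, 68 (93.2%) had a log2 fold change below 0, against 49.7% of all features, and their median was −0.21, against 0.0024 over all features. The 73 values come from the same 6 libraries and are not independent of one another, and single libraries moved them: the median was −0.35 without MAC replicate 2, −0.33 without MAH replicate 3 and −0.10 without MAC replicate 3. It stayed below 0 in all 17 alternative settings. No member was higher in MAH without overlap (2.82% of all features were) and 3 were lower without overlap, close to the 3.23% of all features.

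Complex I subunits gave a median log2 fold change of −0.22, with 32 of 34 lines below 0. Ndufs8, a core iron-sulfur subunit, was at 86.6, 60.7 and 91.1 CPM in MAC and 59.6, 55.9 and 58.0 in MAH. The 3 MAH libraries lay close together, just under the lowest control, and the log2 fold change was −0.46 ± 0.19 (SE, unadjusted p = 0.0465, adjusted p = 1.00). Ndufa13, an accessory subunit also known as GRIM-19, was at 81.6, 57.4 and 84.8 CPM in MAC and at 55.5, 46.4 and 57.5 in MAH, where replicate 3 and MAC replicate 2 overlapped (−0.49 ± 0.20, unadjusted p = 0.0434, adjusted p = 1.00). A second line named Ndufa10l1 was at 31.9, 20.0 and 24.5 CPM in MAC and 5.33, 18.8 and 11.7 in MAH, without overlap (−1.09 ± 0.44, unadjusted p = 0.0422, adjusted p = 1.00). Without MAH replicate 1, the lowest, the log2 fold change was −0.73. The first line of the same name was at 96.1, 62.5 and 82.5 in MAC and 84.1, 76.9 and 73.9 in MAH (−0.036 ± 0.20), so the lines that share this symbol did not move alike, and how reads were divided between them is not given in the sources used here. Ndufs1 was at 102, 70.6 and 80.2 in MAC and 89.9, 88.2 and 67.0 in MAH, with full overlap (−0.046 ± 0.21).

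Assembly factors of complex I, which help build the enzyme but are no part of it, showed no common direction: 4 of 7 were below 0, with a median of −0.053. Ndufaf5, a hydroxylase that modifies the subunit Ndufs7, was at 18.0, 13.7 and 16.7 CPM in MAC and 11.3, 9.04 and 12.2 in MAH. All MAH values were under all control values, and the log2 fold change was −0.57 ± 0.22 (unadjusted p = 0.0349, adjusted p = 1.00), the smallest p of any member. Its control mean was 16.2 ± 2.19 CPM against 10.9 ± 1.65 (SD, n = 3). Ndufaf4 was at 20.3, 18.7 and 19.6 in MAC and 21.5, 19.0 and 26.6 in MAH (0.20 ± 0.19), and Ndufaf2 had a log2 fold change of −0.26 ± 0.29.

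All 4 complex II subunits were below 0, with a median of −0.22. Sdhc, a membrane anchor, was at 170, 80.1 and 164 CPM in MAC and at 89.9, 110 and 110 in MAH, so the high-sucrose libraries lay between MAC replicate 2 and the other 2 controls (−0.41 ± 0.30, unadjusted p = 0.206). Sdha was at 237, 143 and 182 in MAC and 157, 176 and 137 in MAH (−0.26 ± 0.24). Sdhd, the other anchor, had a log2 fold change of −0.18 ± 0.22 and Sdhb, the iron-sulfur subunit, one of −0.097 ± 0.19.

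Complex III was the nuclear class with the smallest median among the subunits, at −0.14, with 5 of 7 lines below 0. Uqcrb, known as the ubiquinone-binding protein, was at 106, 85.2 and 112 CPM in MAC and 69.4, 68.1 and 97.9 in MAH (−0.37 ± 0.21, unadjusted p = 0.123). MAH replicate 3 fell among the controls. For the accessory subunits Uqcrh and Uqcr10 the log2 fold changes were −0.18 ± 0.20 and −0.17 ± 0.25, and the core subunit Uqcrc2 was at 0.0011 ± 0.20.

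In complex IV, 12 of the 13 lines tested were below 0, with a median of −0.18. Cox5b, which binds zinc on the matrix side, was at 94.3, 82.6 and 125 CPM in MAC and 81.2, 63.5 and 83.4 in MAH (−0.40 ± 0.21, unadjusted p = 0.0980). Cox6a1 was at 204, 189 and 265 in MAC and 182, 146 and 199 in MAH (−0.32 ± 0.22), and Cox7a2l, a factor that joins complexes III and IV into supercomplexes, had a log2 fold change of −0.28 ± 0.21. Cox4i1 was at 392, 272 and 364 in MAC and 273, 292 and 309 in MAH (−0.23 ± 0.21). Each of these pairs of groups overlapped. Cox7a1, the muscle and brown fat isoform, was the exception in direction at 0.58 ± 0.68, with 14.4, 3.83 and 5.36 CPM in MAC and 11.0, 20.4 and 4.14 in MAH, a spread of several fold within either group; without MAH replicate 2 its value was −0.041.

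For complex V, 15 of 15 lines were below 0, with a median of −0.25. Atp5f1a, the alpha subunit of the catalytic head, was at 610, 325 and 496 CPM in MAC and 372, 385 and 317 in MAH (477 ± 143 against 358 ± 35.9, log2 fold change −0.41 ± 0.27, unadjusted p = 0.164). The high-sucrose libraries lay around MAC replicate 2. The smallest p in this complex was that of Atp5mf, a subunit of the membrane part, at 135, 113 and 151 in MAC and 87.6, 91.9 and 126 in MAH (−0.38 ± 0.21, unadjusted p = 0.114). Atp5mc2, one of the genes for the rotating c-ring, had a log2 fold change of −0.30 ± 0.18, Atp5po, the stalk subunit OSCP, one of −0.33 ± 0.21, and Atp5if1, the inhibitor of the enzyme, one of −0.19 ± 0.17.

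MAC replicate 2 held the lowest level of the 9 libraries for 19 of the 75 nuclear subunit lines, more than any other library. It was also the lowest mesenteric library in the smooth muscle marker sum and the highest of all 9 in the sum of 8 fibroblast markers (13600 CPM, against 1548 to 7742 in the others). Dcn alone was at 9317 CPM there, and 5 of the 8 markers were at their highest. Col1a1, Pi16 and Clec3b were instead below both other controls, with Col1a1 at 457 CPM against 831 and 1788. Between MAH and MAC, 8 of 8 fibroblast markers had a log2 fold change below 0 (median −0.42), as had 7 of 10 smooth muscle markers (−0.099), and 7 of 8 white adipocyte markers were above 0 (0.59), none of them called. The part of this make-up in the subunit levels was not tested. Without this library, 20 of the 94 members stood at an unadjusted p under 0.05, against 812 of 14321 features (5.67%), and none was called. The number was 0 without MAC replicate 1, MAC replicate 3 or MAH replicate 1, where 1.61%, 2.06% and 1.86% of all features stood there. It was 1 without MAH replicate 2 (1.43% of all features) and 3 without MAH replicate 3 (3.29%).

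Messages of the mitochondrial genome had log2 fold changes above 0 for 12 of 13 genes between MAH and MAC, with a median of 0.21. The exception was Mt-nd3, a complex I subunit, at −0.074 ± 0.32. None was without overlap and the smallest unadjusted p was 0.274, for Mt-atp8, which was read with few counts (28 to 99 per library) and lies over part of Mt-atp6 in the genome, so that the reads of these genes cannot be told apart here. Mt-nd2 was at 6600.4, 10109 and 11380 CPM in MAC and 9888, 12387 and 13536 in MAH (0.35 ± 0.31), and Mt-nd4l, which overlaps Mt-nd4, at 0.40 ± 0.35. MAC replicate 1 held the lowest level for 7 of the 13 messages. The median depended on single libraries: it was 0.065 (8 of 13 above 0) without MAH replicate 3, 0.10 without MAC replicate 1 and 0.36 without MAH replicate 1. With limma-voom and quality weights it was 0.13, with 8 of 13 above 0. The ratio of mitochondrial to nuclear subunit counts, which needs no scaling between libraries, was 15.3, 27.0 and 17.9 in MAC and 21.1, 26.9 and 30.9 in MAH. MAC replicate 2 again lay within the range of the high-sucrose libraries.

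**Figure D2:**
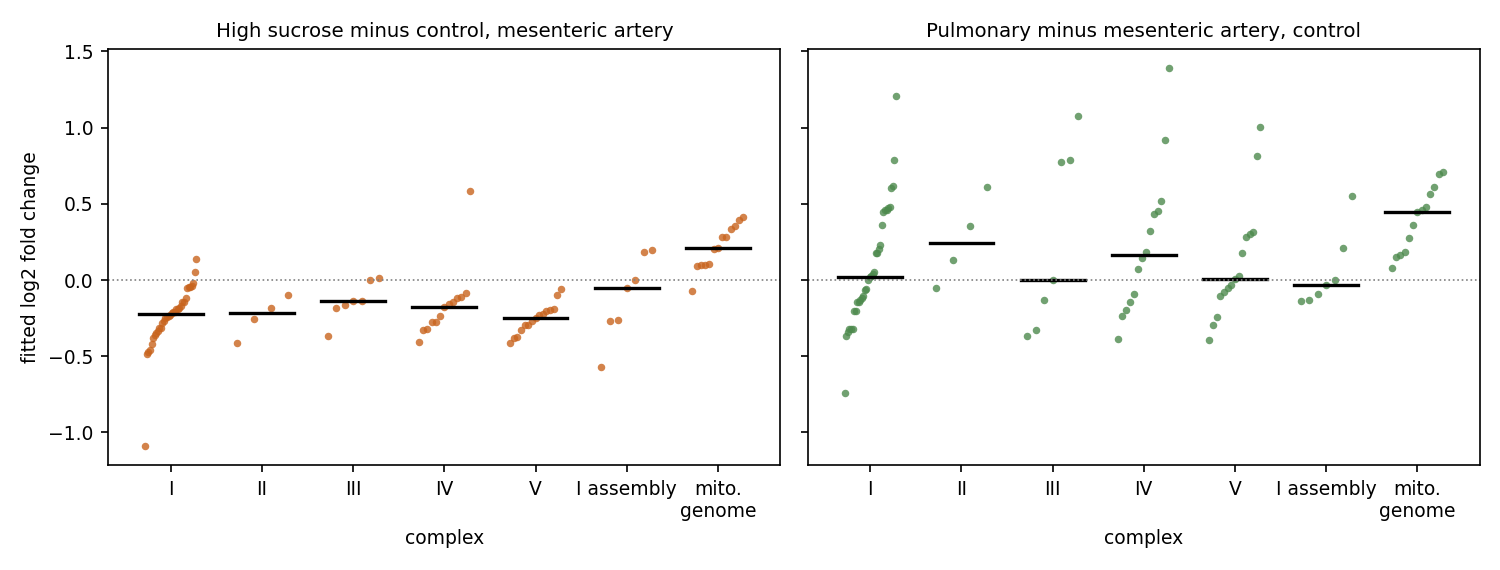
Fitted log2 fold changes of each tested member (points) by complex, with the class median (black line), for high sucrose against control in mesenteric artery and for pulmonary against mesenteric artery in controls. On the left nuclear classes lie mostly below 0 and mitochondrial messages above it; on the right the nuclear classes spread to both sides and all 13 mitochondrial messages lie above 0.

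Between pulmonary and mesenteric arteries of control offspring, the mitochondrial messages were higher in the mean for 13 of 13 genes and the nuclear subunits split 42 above to 32 below 0, again with no member called. The nuclear sum was 6375, 14533 and 7014 CPM in PAC replicates 1, 2 and 4, so that replicates 1 and 4 lay within the mesenteric control range (5914 to 8710) and replicate 2 far above it. The mitochondrial sum was 127433, 223724 and 270992 CPM, with replicate 1 near the lowest control and the other 2 above every control. In percent of all counts the mitochondrial messages were 13.9%, 20.1% and 27.1%. The ratio of mitochondrial to nuclear subunit counts was 20.0, 15.4 and 38.6, so the 2 pulmonary libraries with high mitochondrial sums lay at opposite ends of the pulmonary range.

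Of 14315 features tested between PAC and MAC, 2 were called (0.014%), and none of the 95 members. The smallest adjusted p of a member was 0.552. DESeq2 called 408 features, again with no member. At an unadjusted p under 0.05 stood 2 members, fewer in proportion than the 8.56% of all features; 1 member was higher without overlap and 1 lower, against 6.78% and 7.33% of all features. The median log2 fold change of the 74 nuclear subunit lines tested was 0.034, against 0.064 over all features, and 32 of them were below 0, where the share over all features was 45%. That of the mitochondrial messages was 0.45. Without PAC replicate 2 the nuclear median was −0.17, with 56 of 74 lines below 0, and without MAC replicate 2 it was −0.086. Without PAC replicate 4 the nuclear median was 0.16 and the mitochondrial one 0.16, with 11 of 13 above 0. With PAC replicate 1 as the only pulmonary library, the medians were −0.29 and −0.20, with 64 of 74 nuclear lines below 0 and 4 of 13 mitochondrial messages above 0, in a fit that takes the lone library to vary as the controls do. The direction of both medians thus depended on which pulmonary libraries were read.

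The member lower in PAC without overlap was Ndufa7, an accessory subunit of complex I, at 91.2, 136 and 110 CPM in MAC and 55.0, 87.2 and 61.8 in PAC (112 ± 22.4 against 68.0 ± 17.0, SD, n = 3). Its log2 fold change was −0.74 ± 0.28 (unadjusted p = 0.0328, adjusted p = 0.552), and over the alternative settings it ran from −1.05 to −0.59. It was thus below its control mean also in PAC replicate 2, where most subunits were above theirs. In MAH the same gene was at 110, 81.1 and 158 CPM, around the controls (0.050 ± 0.28).

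The member higher in PAC without overlap was Ndufa4l2, a relative of the complex IV subunit Ndufa4 known as a hypoxia-induced gene. It was read with few counts, 10, 9 and 8 in MAC and 14, 23 and 45 in PAC, or 0.66 to 0.78 against 1.15 to 2.97 CPM. The log2 fold change was 1.39 ± 0.53 (unadjusted p = 0.0359, adjusted p = 0.552), and the highest library was PAC replicate 4. Ndufa4 itself was at 43.9, 23.7 and 45.8 CPM in MAC and 27.9, 82.4 and 46.9 in PAC (0.46 ± 0.45).

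Assembly factors of complex I had 2 of 7 genes above 0 between PAC and MAC, with a median of −0.031, and none was called. Ndufaf1, which acts early in assembly, was at 7.33, 5.83 and 5.83 CPM in MAC and 8.22, 13.3 and 6.61 in PAC, highest in replicate 2 (0.55 ± 0.39, unadjusted p = 0.203). Ndufaf4 was at 18.4, 26.7 and 23.3 CPM in PAC (0.21 ± 0.24) and Ndufaf5 at 16.6, 13.6 and 14.1 (−0.14 ± 0.26), and both overlapped the controls.

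In PAC replicate 2 the rise over the control mesenteric mean was broad but uneven. Of 75 nuclear subunit lines, 66 were above that mean and 19 were more than 2 times it, and this library held the highest level of all 9 for 54. PAC replicates 1 and 4 had 10 and 25 lines above the mean. Of the 14315 features tested between PAC and MAC, 6900, 6905 and 6966 were above theirs in PAC replicates 1, 2 and 4. No such number over all features is given for the 19 and the 54 lines. The counts for replicates 2 and 4 include Cox6a2, which became a member only through these 2 libraries. Leaving Cox6a2 aside, the 5 highest ratios belonged to core and catalytic subunits: Ndufs1, Uqcrfs1, Atp5f1b, Atp5f1a and Uqcrc2. Core subunits as a set did not stand out. In complex I, the core subunits Ndufs7, Ndufs8 and Ndufv2 were at 1.39, 1.23 and 1.15 times their control means. The accessory subunits Ndufab1 and Ndufa9 were at 2.34 and 2.11 times theirs. Ndufs1 was at 421 CPM in PAC replicate 2 against 101 and 69.8 in replicates 1 and 4, which is 4.99 times the control mean of 84.4 ± 16.3. Uqcrfs1, the Rieske iron-sulfur protein of complex III, was at 326 CPM, or 4.16 times its control mean, and at 60.3 and 115 in the other pulmonary libraries. The core subunits Uqcrc1 and Uqcrc2 of the same complex were at 3.07 and 3.25 times their control means.

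For complex V, the catalytic beta subunit Atp5f1b was at 2150 CPM in PAC replicate 2 (3.91 times the control mean) and at 472 and 720 in replicates 1 and 4, and the alpha subunit Atp5f1a at 1618 CPM (3.39 times) and at 466 and 456. In complex II, Sdha was at 530 CPM, 2.83 times the control mean, with 205 and 133 in the other pulmonary libraries, and all 4 subunits were highest in this library. Ndufv1, which holds the NADH site of complex I, and Cox5a of complex IV were both at 3.05 times their control means. Over all 3 pulmonary libraries the log2 fold changes and adjusted p-values were 1.21 ± 0.68 for Ndufs1 (adjusted p = 0.642), 1.07 ± 0.61 for Uqcrfs1 (0.642), 1.00 ± 0.64 for Atp5f1b (0.677) and 0.92 ± 0.49 for Cox5a (0.633). They were 0.79 ± 0.49 for Ndufv1 (0.674), 0.79 ± 0.50 for Uqcrc1 (0.677), 0.78 ± 0.53 for Uqcrc2 (0.693) and 0.81 ± 0.60 for Atp5f1a (0.715). In complex II they were 0.61 ± 0.54 for Sdha (0.758), 0.35 ± 0.41 for Sdhb (0.814) and 0.13 ± 0.40 for Sdhd (0.937). Cox5a stood above every control in PAC replicate 4 as well, at 123 CPM.

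At the other end, 9 nuclear subunit lines were not above the control mean in PAC replicate 2. Cox6a1 was the lowest at 0.680 times its control mean, followed by the inhibitor Atp5if1 at 0.724, Ndufa7 at 0.775, Ndufa2 at 0.799, Cox7a2l at 0.811, the ATP synthase e subunit Atp5me at 0.858, Uqcrq at 0.933, the second Ndufs5 line at 0.968 and Ndufb6 at 0.994. Over the 3 pulmonary libraries Atp5me had a log2 fold change of −0.39 ± 0.29 (adjusted p = 0.713). Cardiac markers were highest in the same library (26178 CPM summed). The 6 skeletal muscle markers found summed to 311 CPM there, against 53.8 to 107 elsewhere. Of these 3 were highest there, with Ckm at 170 CPM and Acta1 at 99.7, while Mylpf was at 1.08 and Myh4 at 0.072. The 7 brown adipocyte markers, which include Cox7a1 and Ppargc1a, summed to 357 CPM. Elsewhere they summed to 135 and 42.7 in PAC replicates 1 and 4 and to 32.9 to 81.6 in the mesenteric libraries. Again 3 were highest in PAC replicate 2, with Cpt1b at 202 CPM and Cidea at 117. Ucp1 was at 4.11 CPM against 12.5 in PAC replicate 1, and Elovl3 at 0. Which cells these transcripts came from, and their part in the subunit levels of PAC replicate 2, was not tested.

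**Figure D3:**
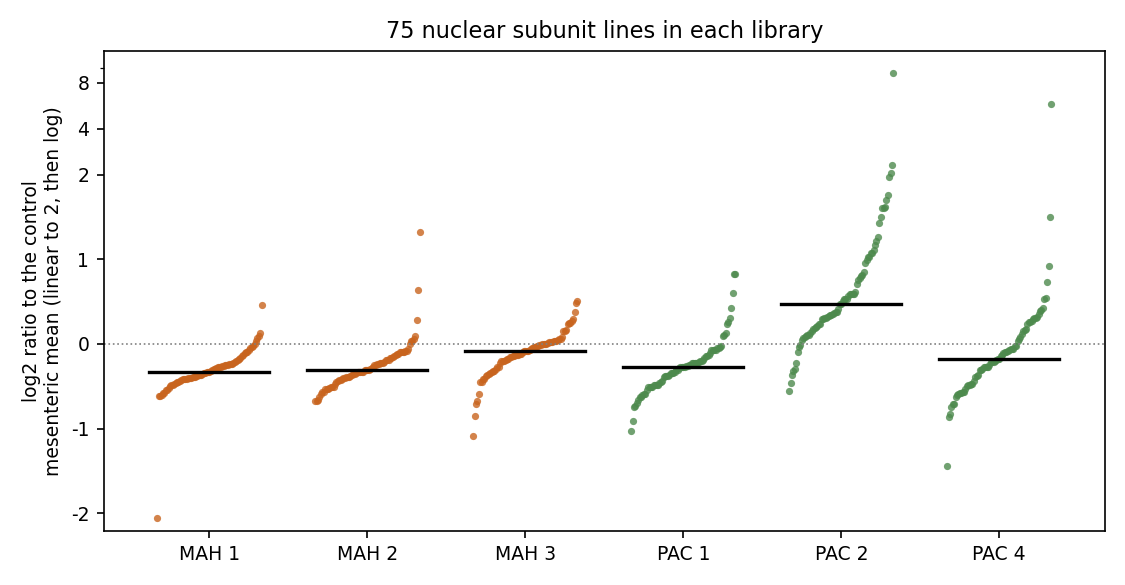
Log2 ratio of each of the 75 nuclear subunit lines to its mean over the 3 control mesenteric libraries, in each of the other 6 libraries (points, sorted within a library; black line, median; pseudocount 0.5 CPM; the axis is linear between −2 and 2 and logarithmic beyond). The medians are −0.33, −0.31 and −0.083 in MAH and −0.27, 0.47 and −0.17 in PAC; the top point in PAC replicates 2 and 4 is Cox6a2.

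Cox6a2 was the member with the widest range. It was read with 1, 4 and 0 counts in MAC, 1, 1 and 0 in MAH and 1 in PAC replicate 1, but with 5499 in PAC replicate 2 and 523 in PAC replicate 4 (396 and 34.6 CPM). Over the 6 mesenteric libraries it had 7 counts in all. It thus reached the count minimum for members only through PAC replicates 2 and 4, and its range is tied to how it was chosen. The gene was thus at or near 0 in 7 libraries and high in the 2 pulmonary libraries in which Myh6 and Myl7 were high as well (6110 and 475 CPM for Myh6 in PAC replicates 2 and 4, and 2343 and 370 CPM for Myl7). It missed the filter on low counts of the test, which asks for enough counts in 3 libraries; without that filter its adjusted p was 0.587. Its counterpart Cox6a1 was at 168, 149 and 190 CPM in PAC and 204, 189 and 265 in MAC (−0.38 ± 0.27, adjusted p = 0.694). In percent of Cox6a1 counts, Cox6a2 was 266% in PAC replicate 2, 18.2% in PAC replicate 4 and at most 0.184% in any other library. The log2 ratio of the isoforms differed by 6.98 between PAC and MAC (exact permutation test, two-sided p = 0.2, adjusted p = 0.6), with a pulmonary SD of 6.03. The counts that made the gene a member also enter this test and the one without the filter. Neither can therefore decide whether the arteries differ in it. Without PAC replicate 2 the difference was 4.37 and without PAC replicate 1 it was 10.3.

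With 3 libraries against 3 an exact test cannot go below p = 0.1, and 6 ratio tests were made and adjusted together. Cox4i2, the form of subunit IV known from lung and from low oxygen, was read with 184, 14 and 105 counts in MAC, 74, 87 and 47 in MAH and 170, 141 and 139 in PAC. In percent of Cox4i1 counts this was 3.10%, 0.448% and 2.67% in MAC, 2.06%, 2.83% and 1.47% in MAH and 4.83%, 2.05% and 3.02% in PAC. The log2 ratio was 0.99 higher in PAC (exact permutation test, p = 0.5, adjusted p = 1.0) and 0.39 higher in MAH (p = 0.9, adjusted p = 1.0). Both differences rested on MAC replicate 2: without it they were 0.11 and −0.49. The log2 fold changes between PAC and MAC were 0.52 ± 0.75 for Cox4i2 and 0.069 ± 0.34 for Cox4i1. For Ndufa4l2 to Ndufa4 the log2 ratio was 0.86 higher in PAC (p = 0.2, adjusted p = 0.6) and 0.24 higher in MAH (p = 0.7, adjusted p = 1.0) by the same exact permutation test. With single libraries left out these differences ran from 0.49, without PAC replicate 4, to 1.31, without PAC replicate 2, and from 0.030, without MAC replicate 1, to 0.60, without MAC replicate 2. Cox7a1 was at 14.4, 9.37 and 2.58 CPM in PAC (0.15 ± 0.76 against MAC), and in PAC replicate 2, where Cox6a2 was high, it lay within the control range. Cox7a2, the partner of Cox7a1, and both Cox8b and Cox8a had no line under these symbols.

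**Figure D4:**
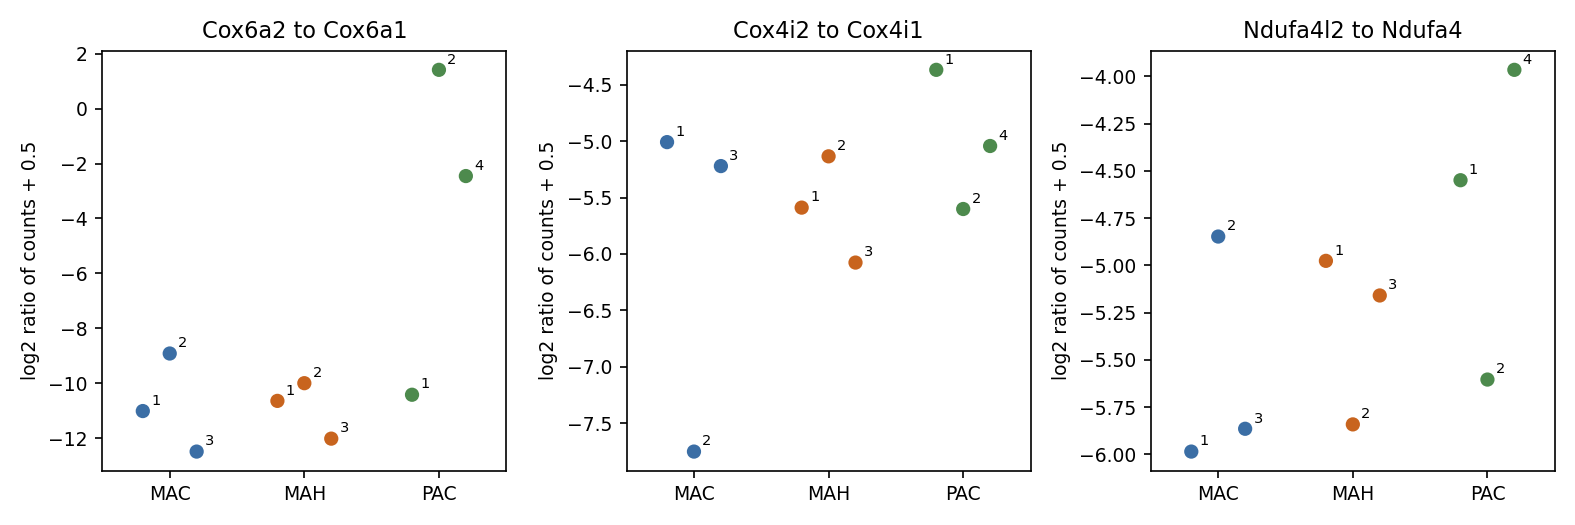
Log2 ratio of the counts of paired isoforms (0.5 added to each count) in each library; the number beside a point is the replicate. Cox6a2 to Cox6a1 is high only in PAC replicates 2 and 4, and the low control point of Cox4i2 to Cox4i1 is MAC replicate 2, with 14 Cox4i2 counts.

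The mitochondrial messages of the pulmonary libraries were not raised in equal measure. Mt-co1, the catalytic subunit of complex IV, was at 40404, 87672 and 105849 CPM in PAC replicates 1, 2 and 4, against 42064, 54806 and 45088 in MAC (0.71 ± 0.55, unadjusted p = 0.238). It made up 31.7%, 39.2% and 39.1% of all mitochondrial messages in PAC, 28.9% to 34.3% in MAC and 32.2% to 34.2% in MAH. Mt-nd1 of complex I went the other way as a share, at 7.91%, 5.65% and 4.84% in PAC against 7.35% to 7.80% in MAC, although its CPM was not lower (0.081 ± 0.40). Mt-cyb, the mitochondrial subunit of complex III, had a log2 fold change of 0.61 ± 0.51, Mt-nd6, the one message encoded on the light strand, 0.46 ± 0.36, and Mt-atp8 0.70 ± 0.48 (unadjusted p = 0.191, the smallest of the 13). PAC replicate 4, with 807 CPM of lung epithelium markers and 1706 of lymphocyte markers against 9.11 to 24.8 and 7.46 to 14.4 in the mesenteric libraries, held the highest level for 9 of 13 messages. The part of these cells in the mitochondrial levels was not tested.

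Other genes of the pathway, outside the symbols that define the members, were read as 11 lists, and no gene of any of them was called in either comparison. Between MAH and MAC the medians of the lists lay between −0.16 and 0.14. Of 69 mitochondrial ribosome genes tested 48 were below 0, with a median of −0.062, and 11 of 16 citric acid cycle genes, with −0.081. Complex IV assembly genes were below 0 in 11 of 13 (median −0.10), complex II and V assembly genes in 6 of 6 (−0.12), complex I assembly genes without an Nduf symbol in 7 of 9 (−0.16) and complex III assembly genes in 3 of 5 (−0.032). Electron carriers, which include cytochrome c and the makers of ubiquinone, were below 0 in 10 of 17 (−0.0016) and adenine nucleotide and phosphate transporters in 3 of 5 (−0.097).

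Of the genes that transcribe and copy the mitochondrial genome 8 of 12 were above 0 (median 0.081), of the regulators of mitochondrial biogenesis 7 of 10 (0.14) and of the genes that process mitochondrial RNA 7 of 12 (0.053), where 50.3% of all features were; how these lists differ from the others was not tested. Polrmt, the RNA polymerase of mitochondria, was at 17.2, 16.2 and 16.3 CPM in MAC and 22.7, 22.8 and 21.0 in MAH. Its groups did not overlap and its libraries lay close together within each group (0.42 ± 0.16, unadjusted p = 0.0340, adjusted p = 1.00). Of all features, 2.82% were higher in MAH without overlap. In PAC Polrmt was at 25.1, 28.5 and 29.7, also above every control (0.74 ± 0.22, unadjusted p = 0.0128, adjusted p = 0.464), as were 6.78% of all features. Both comparisons use the same 3 control libraries. Mrpl23, a mitochondrial ribosome gene, had a smaller p between MAH and MAC and went the other way. It was at 34.1, 38.5 and 37.4 CPM in MAC and 27.6, 23.7 and 28.9 in MAH (−0.46 ± 0.16, unadjusted p = 0.0259 by edgeR). Its groups did not overlap either, and 3.23% of all features were lower in this way.

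Between PAC and MAC, 16 of 16 citric acid cycle genes were above 0 (median 0.47), 15 of 17 electron carriers (0.33), 11 of 12 genes of mitochondrial transcription and replication (0.25), 9 of 10 regulators of biogenesis (0.33), 5 of 6 transporters (0.58), 49 of 69 mitochondrial ribosome genes (0.13) and 8 of 12 RNA processing genes (0.14). For assembly the counts were 4 of 5 for complex III (0.31), 7 of 13 for complex IV (0.032), 3 of 6 for complexes II and V (0.042) and 7 of 9 for complex I (0.18). Of all features, 55.0% were above 0. For some of these genes PAC replicate 2 carried the largest value, and how far the lists depended on this library was not tested. Ogdh of the citric acid cycle was at 100, 550 and 168 CPM in PAC replicates 1, 2 and 4, against 80.8 to 139 in MAC. Coq9, of the electron carrier list, was at 28.2, 159 and 35.5 CPM, against 25.0 to 29.4. Ckmt2, the mitochondrial creatine kinase of striated muscle, was at 0.82, 735 and 36.5 CPM in PAC replicates 1, 2 and 4 and at most 1.58 in the mesenteric libraries. Slc25a4, the adenine nucleotide carrier of muscle, was at 245, 1561 and 280 CPM and at 177 to 316 in the mesenteric libraries, and Coq8a, a kinase-like protein of ubiquinone synthesis, at 41.8, 199 and 14.0 against 12.2 to 21.8. Perm1, a muscle regulator of oxidative genes, was at 5.83, 74.4 and 2.25 CPM, against 0.609 to 4.82 in the mesenteric libraries. Ppargc1a, the coactivator PGC-1 alpha, was at 3.86, 17.1 and 0.529, against 0.289 to 6.85, the last in MAH replicate 2. Other genes were highest in PAC replicate 4: Mgme1, a nuclease of mitochondrial DNA maintenance, was at 4.35, 4.47 and 13.3 CPM in PAC and 1.45, 2.44 and 2.22 in MAC, without overlap (1.85 ± 0.60, unadjusted p = 0.0192, adjusted p = 0.498). The mitochondrial ribosome genes Mrpl38 and Mrps2 were at 16.5, 25.7 and 29.5 and at 13.5, 24.3 and 27.8 CPM in PAC. In MAC they were at 11.3 to 14.7 and 12.5 to 13.9. Elac2, which cuts the 3′ ends of mitochondrial transfer RNAs, was at 23.3, 25.9 and 40.1 in PAC and 19.1 to 24.3 in MAC.

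Higd1a, a small hypoxia-induced protein that binds complex IV, was lower in all 3 pulmonary libraries, at 19.8, 26.3 and 24.1 CPM against 75.3, 41.9 and 135 in MAC and 61.6 to 72.6 in MAH. The log2 fold change between PAC and MAC was −1.86 ± 0.44 (unadjusted p = 0.00447, adjusted p = 0.374), and the groups did not overlap. Its level in PAC replicate 2 was close to that in the other pulmonary libraries.

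Several lines with member symbols were nearly empty. At 0 in every library were 5 of the 11 lines under the minimum: the pseudogenes Cox6b1-ps1 and Cox6c-ps1, Cox7b2, Cox8c and a first line named Ndufb2, whose second line was a member. Ndufs6, an accessory subunit of complex I, had 26 counts over the 9 libraries, and the 2 lines named Atp5mc1 had 37 and 28. How reads shared with copies of a gene were counted is not given in the sources used here, so these counts are not read as levels. Some further subunits, among them Cox7a2, Cox8a and Atp5f1c, had no line under these symbols and were not analysed here.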

How the data were processed

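Whole vessels of 9 samples were sequenced; per the labels, RNA was captured with oligo(dT), fragmented and copied with random primers. The authors deposited raw counts per gene, 1 table per library, on build rn7 per the submitters' processing notes. Aligner, counting program, annotation and strand: not given in the sources used here. Each line was a feature of its own; 235 names were on more than 1 line.

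Lines were tested with edgeR 4.0.16 in R 4.3.3 (TMM, filterByExpr, robust quasi-likelihood F test, library size from all counts), with the 6 libraries of a comparison in its fit and Benjamini-Hochberg adjustment over all features tested. Standard errors are log2 fold changes over the root of F. Levels are CPM with TMM factors from all 9 libraries, with mean and SD of 3 libraries. Isoform ratios used counts plus 0.5 and exact permutation tests. Alternatives were median-ratio and upper quartile factors, no factors, the mitochondrial genome left out, DESeq2 1.42.0, limma-voom with quality weights (limma 3.58.1), a fit of all 9 libraries, no filter, a stricter filter (at least 10 counts throughout a group, and 1 CPM on average), a replicate block, each library left out and, added after seeing the data, edgeR's newer quasi-likelihood method. The fit was tested on simulated data.

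The text names, in each comparison, in each class the 3 members with the smallest p, and the isoform pairs. Of the 2 genes with the smallest p in each pathway list, only some were named, with their values known. Other genes were named after their values were seen. Members and lists were chosen with earlier results of these data known. No 2 libraries of a group agreed within sampling noise (chi-square per degree of freedom 45.75 to 332.4), so none was taken for a library deposited again. Counts carry no molecular identifiers. Oligo(dT) capture of mitochondrial messages depends on their tails, and its yield was not measured.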

Additional observations from a re-analysis of the deposited data

How the results depend on the processing

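No member was called in any of the 17 alternative settings between MAH and MAC or the 18 between PAC and MAC. Adjusted p-values of the members named ran from 0.851 to 1.00 and from 0.301 to 0.999, leaving aside Cox6a2. That gene had 0.235 without PAC replicate 1, in a test that uses the counts by which it became a member. The median of nuclear subunits between MAH and MAC stayed between −0.35 and −0.10. Features called between MAH and MAC were 3 with DESeq2, against 0. Between PAC and MAC they were 408 with DESeq2, 34 with limma-voom, 40 with all 9 libraries in 1 fit, 9 with the newer quasi-likelihood method, 0 with PAC replicate 1 alone and 0 to 22 with single libraries left out, against 2; the cause was not tested. Deviations of same-numbered libraries from their group means had correlations from −0.278 to 0.196. So few pairs, with means of 3 libraries, cannot exclude a pairing, and the main fit used none. With a replicate block 6 features were called between PAC and MAC, 18 nuclear subunits were below 0, and the mitochondrial median was 0.21; between MAH and MAC it was 0.20 and 0 were called.

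Without single libraries, the nuclear subunits below 0 between PAC and MAC numbered 24 to 56 and the mitochondrial median was 0.16 to 0.62. With PAC replicate 1 alone these were 64 and −0.20, the nuclear median was −0.29, and the log2 fold changes turned for Ndufv1 (−0.0971), Sdhb (−0.0953), Sdhd (−0.12), Uqcrfs1 (−0.40), Uqcrc1 (−0.27), Cox5a (−0.36), Atp5f1b (−0.24), Atp5f1a (−0.056), Ndufaf4 (−0.11), Ndufaf5 (0.017), Mt-co1 (−0.25), Cox4i1 (−0.27) and Ndufa4 (−0.46). With single libraries left out, values that changed sign between PAC and MAC ran from −0.15 to 0.96 for Sdha, −0.18 to 0.60 for Sdhb, −0.32 to 0.39 for Sdhd, −0.032 to 1.13 for Uqcrc2, −0.045 to 1.11 for Atp5f1a, −0.20 to 0.20 for Cox4i1 and −0.012 to 0.75 for Ndufa4, each lowest without PAC replicate 2, and −0.42 to 0.92 for Cox7a1. Sdhd (−0.048) and Cox4i1 (−0.086) also turned without MAC replicate 2, and Cox7a1 without MAC replicate 2 (−0.19) or 3 (−0.072). Between MAH and MAC the ranges were −0.83 to 0.17 for Cox4i2, −0.36 to 0.043 for Uqcr10, −0.46 to 0.022 for Ndufa4 and −0.041 to 1.37 for Cox7a1. The MAH difference of Cox4i2 to Cox4i1 ran from −0.49 to 0.89, and that of Cox6a2 to Cox6a1, from at most 4 counts a library, was −0.080, with a range of −0.92 to 0.86 and 0.0079 with 1 added to each count. The ratios of Cox7a1 to Cox7a2 and of Cox8b to Cox8a were not run.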
